A study of Homo sapiens with 6 samples.

Results

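The transcripts described here are those of the interleukin-1 (IL-1) family after silencing of BARD1 in the human ovarian adenocarcinoma line SKOV3ip1. They comprise 4 cytokine ligands (IL1A, IL1B, IL18 and IL33), the receptor antagonist IL1RN, the receptor chains IL1R1 and IL1RAP, and the kinases IRAK1, IRAK2 and IRAK4. The rows were chosen by gene name from the deposited count table, and all 10 names were found among its 58735 genes. All 10 passed the filter on low counts that left 15271 genes for testing. The filter needed 3 libraries, of either group, at a counts-per-million (CPM) value of 0.579. IL1B and IL33 reached this value in 3 BARD1 siRNA libraries and 1 Control siRNA library, and IL1RN in 3 and 0. Their Control siRNA libraries alone would not have let these 3 genes be tested, so their testing depended on their level in BARD1 siRNA cells.

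SKOV3ip1 cells were sequenced 48 h after lipid transfection with 2 µg of BARD1 siRNA, in 3 libraries. They were set against the same line given 2 µg of Control siRNA for 48 h, also with 3 libraries. The labels give the genotype as WT in every sample and number the libraries as biological replicates, without saying that they were transfected on separate days. P-values therefore measure the spread between these cultures. The labels name the material as tumors and as cells, while the protocols describe a cultured line. BARD1, the RING-domain partner of BRCA1, is the silenced gene, and the design asks how its loss affects angiogenesis pathways.

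Libraries held 16621108 to 17743404 gene counts, so that 1 read stood for 0.0555 to 0.0615 CPM after scaling. BARD1 had 96, 110 and 169 counts in BARD1 siRNA libraries, against 805, 644 and 887 in Control siRNA libraries, and was 5.98-fold lower (edgeR adjusted p = 1.21e-15). Ovarian carcinoma markers were abundant, with ERBB2 at 1911 ± 24.1 CPM in BARD1 siRNA cells and 2100 ± 129 CPM in Control siRNA cells (SD, n = 3 each), while the epithelial cadherin CDH1 was near 0, at 0.338 ± 0.240 CPM in BARD1 siRNA cells and 0.726 ± 0.301 CPM in Control siRNA cells. Of 8 such markers 2 were higher, 3 were lower and 3 were not called, which is 62.5% called beside 42.3% of all tested genes. KRT7 was 1.97-fold lower and PAX8 1.68-fold higher (edgeR adjusted p = 4.47e-22 and 2.64e-19). The marker sums, in which the most abundant genes weigh most, overlapped at 5124 to 5222 CPM in BARD1 siRNA libraries and 5017 to 5288 CPM in Control siRNA libraries. Of 8 monocyte and macrophage markers, 4 had no count in any library, among them PTPRC, LYZ and TYROBP. The 8 summed to 0.460 to 1.05 CPM in BARD1 siRNA libraries and 0.569 to 0.822 CPM in Control siRNA libraries. T cell markers reached at most 0.0587 CPM in sum, and CD3D and CD3E had no count. Endothelial markers summed to 0.118 to 0.308 CPM in BARD1 siRNA libraries and 0.117 to 0.285 CPM in Control siRNA libraries. Fibroblast markers summed to 16.8 to 22.2 CPM in BARD1 siRNA libraries and 26.1 to 26.9 CPM in Control siRNA libraries, and 1 of 4 tested was lower. The part of this difference in the results was not tested. In bulk RNA, a transcript made by more cells and one made at a higher level per cell cannot be told apart.

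IL-1α and IL-1β are inflammatory cytokines that bind the same receptor. IL1R1 binds the ligand, IL1RAP joins as the signalling chain, and the adaptor MYD88 then recruits the kinases IRAK4, IRAK1 and IRAK2, which pass the signal through TRAF6 to NF-κB and MAP kinases. IL1RN encodes a ligand of IL1R1 that gives no signal and so competes with both cytokines. IL-18 and IL-33 are relatives that use their own receptors and share the MYD88 and IRAK route. IL-1β and IL-18 are made as precursors that caspase-1 cleaves, whereas the precursors of IL-1α and IL-33 are active already and act as alarm signals of damaged cells.

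The sequences just upstream of the transcription start are shown for the 3 members with a log2 fold change of at least 3, IL1A, IL1B and IRAK2. They come from RefSeq on GRCh38.p14, are written 5′ to 3′ on the gene's own strand and cover the 250 bases before the annotated start. They lie at chr2:112784494-112784743 (minus strand), chr2:112836780-112837029 (minus strand) and chr3:10164669-10164918 (plus strand). In the count table the 5′ ends of these genes are at 112784590, 112836903 and 10164865, upstream of the RefSeq starts used here. Each window therefore runs partly into the gene span of the count table. Capitals mark matches, on either strand, to the AP-1 motif TGANTCA, the cyclic AMP response element TGACGTCA, the TATA box letters TATAAA or the 10-base κB consensus.
IL1A: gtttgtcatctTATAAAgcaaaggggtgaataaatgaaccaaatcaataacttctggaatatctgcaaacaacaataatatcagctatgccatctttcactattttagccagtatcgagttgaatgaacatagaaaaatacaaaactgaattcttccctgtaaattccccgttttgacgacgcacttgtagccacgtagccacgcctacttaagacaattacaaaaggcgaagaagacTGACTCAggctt
IL1B: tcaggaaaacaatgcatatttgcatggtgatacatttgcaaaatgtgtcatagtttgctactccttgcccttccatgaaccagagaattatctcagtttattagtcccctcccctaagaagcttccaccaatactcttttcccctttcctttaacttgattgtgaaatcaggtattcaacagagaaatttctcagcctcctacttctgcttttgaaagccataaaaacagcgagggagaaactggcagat
IRAK2: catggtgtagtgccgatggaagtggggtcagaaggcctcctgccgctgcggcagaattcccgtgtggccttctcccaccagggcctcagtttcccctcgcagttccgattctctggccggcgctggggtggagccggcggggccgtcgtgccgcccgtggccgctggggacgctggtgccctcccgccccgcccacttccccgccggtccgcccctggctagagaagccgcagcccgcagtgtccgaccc

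The IL1A window held 1 AP-1 match, 12 bases before the RefSeq start, and 1 set of TATA letters 239 bases before it. This AP-1 match lies inside the gene span of the count table. The windows of IL1B and IRAK2 held no match to any of the 4 motifs, which says only that these letters are not in those 250 bases. A further annotated IL1A start had AP-1 matches 105 and 55 bases upstream, the first being the same site. AP-1 matches occurred in 6.57% of all 35116 RefSeq windows, κB matches in 9.96%, TATA letters in 10.7% and the cyclic AMP element in 1.65%. The 9 members with a window had 16 windows, of which 3 held an AP-1 match (the IL1A windows and 1 of IL1RN), 3 held TATA letters and 1 held a κB match, 114 bases before the IRAK1 start. IL18 had no entry. Base composition differed among the members that rose most. G and C made up 37.6% of the IL1A window and 40% of the IL1B window, against 72% in IRAK2 and a median of 58% over all windows. The IL1B window held 1 CpG and that of IRAK2 held 24.

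The 3′ untranslated regions of the cytokine messages differed in AU-rich elements, the ATTTA repeats through which short-lived messages are bound by decay factors. In the principal GENCODE release 29 transcript, IL1B had 6 ATTTA pentamers in 610 bases, or 9.84 per kb, and 2 copies of the 9-base motif TTATTTATT. IL1A had 5 in 1152 bases, or 4.34 per kb. IL33 had 4 in 1815 bases, or 2.2 per kb. IL1RN and IL18 had none, in 1145 and 345 bases. Among 12636 tested genes with a 3′ untranslated region the median was 1.63 per kb. Of these genes 1.24% were at least as dense as IL1B, 13.3% as IL1A and 40.3% as IL33. IL1RAP had 5.33 per kb and IRAK2 1.98 per kb. The 30 bases richest in ATTTA (capitals) are shown for IL1A and IL1B, on chromosome 2.
IL1A: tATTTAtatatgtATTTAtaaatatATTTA
IL1B: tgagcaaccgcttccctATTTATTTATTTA

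In the comparison of BARD1 siRNA with Control siRNA cells, 7 of the 10 members were higher, 1 was lower and 2 did not pass the test at an adjusted p of 0.05 (edgeR quasi-likelihood test, Benjamini-Hochberg adjustment over 15271 genes). Of all tested genes 42.3% were called, 22.0% as higher and 20.3% as lower, that is 3355 and 3107 genes. This split was 2815 higher and 3975 lower under upper-quartile scaling, and 2852 higher and 3906 lower under library size alone. The median log2 fold change of the members was 1.35, beside -0.01 for all tested genes. The groups did not overlap for 9 members, and the same held for 50.4% of tested genes. IL1A, IL1B and IRAK2 had log2 fold changes of at least 3, which 0.432% of tested genes reached. The members were chosen with results of these data known, so these counts describe the members and test nothing about them as a list.

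**Figure D1:**
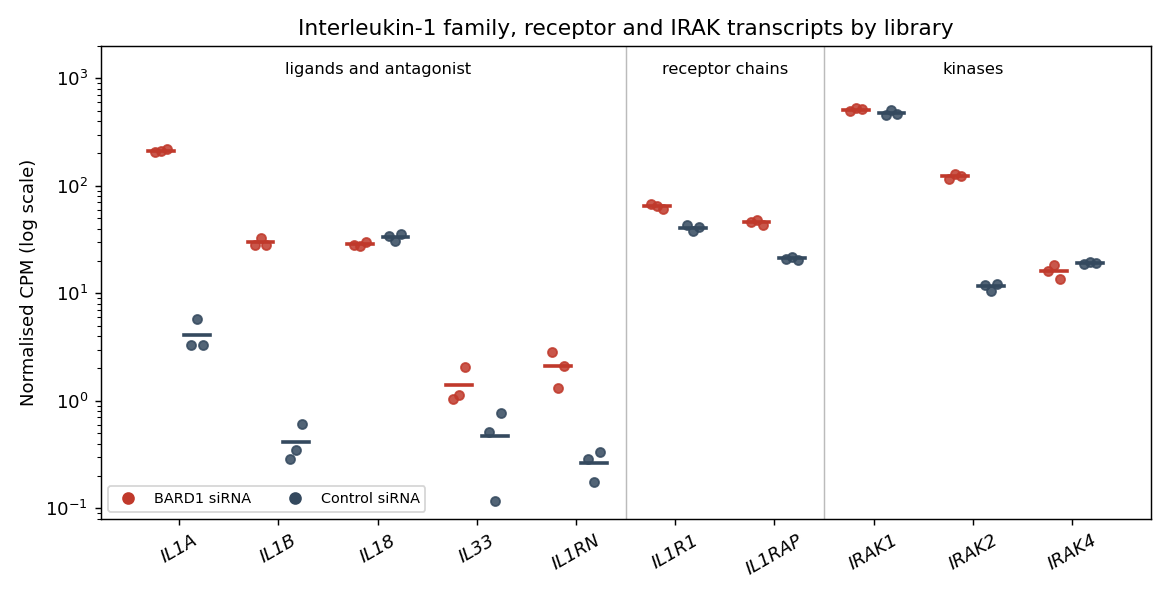
Normalised CPM (log axis) of the 10 transcripts, 1 point per library and a bar at the group mean, with BARD1 siRNA in red to the left of Control siRNA in dark blue. The groups lie far apart for IL1A, IL1B and IRAK2, lie close for IL18 and IRAK4, and overlap for IRAK1 only.

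IL1A (ENSG00000115008, GRCh38 chromosome 2, 112773915 to 112784590, minus strand), which encodes IL-1α, had 205, 213 and 220 CPM in BARD1 siRNA libraries, against 3.30, 5.75 and 3.27 CPM in Control siRNA libraries. Every BARD1 siRNA library lay far above every control, and the second control was the highest of its group. The means were 213 ± 7.47 CPM in BARD1 siRNA cells and 4.11 ± 1.42 CPM in Control siRNA cells (SD, n = 3 each), a 51.9-fold difference. The log2 fold change was 5.70 (SE 0.11), with an edgeR adjusted p of 2.09e-27. IL1A ranked 8 among the 15271 tested genes by log2 fold change.

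IL1B (ENSG00000125538, chromosome 2, 112829751 to 112836903, minus strand), which encodes IL-1β, was nearly silent in Control siRNA cells. Its counts were 461, 557 and 490 in BARD1 siRNA libraries, against 5, 6 and 11 in Control siRNA libraries. In normalised terms these were 28.4, 33.0 and 28.2 CPM in BARD1 siRNA libraries and 0.285, 0.352 and 0.610 CPM in Control siRNA libraries, with no overlap. The log2 fold change was 6.13 (SE 0.21, 70.2-fold, edgeR adjusted p = 6.69e-31), at rank 7, and its control level rests on 22 reads.

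IL1A was the more abundant of the pair per length in all 6 libraries. In RPKM, the CPM value per kilobase of the deposited gene length, IL1A stood at 100 ± 3.52 and IL1B at 9.64 ± 0.883 in BARD1 siRNA cells, and at 1.93 ± 0.671 and 0.134 ± 0.0555 RPKM in Control siRNA cells. IL1A took 91.3%, 90.4% and 91.9% of the summed IL1A and IL1B level in BARD1 siRNA libraries, against 94.4%, 96.0% and 88.7% in Control siRNA libraries, and these shares overlapped.

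IL1RN (ENSG00000136689, chromosome 2, 113107214 to 113134016, plus strand), which encodes the receptor antagonist, also rose but stayed low. It had 46, 22 and 37 counts in BARD1 siRNA libraries, against 5, 3 and 6 in Control siRNA libraries. The means were 2.09 ± 0.765 CPM in BARD1 siRNA cells and 0.265 ± 0.0803 CPM in Control siRNA cells, and the groups did not overlap (log2 fold change 2.94, SE 0.53, edgeR adjusted p = 6.31e-06). Per length, the summed agonist messages exceeded that of the antagonist 122, 277 and 173 times in BARD1 siRNA libraries, against 18.8, 52.2 and 17 times in Control siRNA libraries. The control ratios rest on 3 to 6 antagonist reads each, and the ratio was not tested. Gene counts do not separate the secreted from the intracellular forms of the antagonist.

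IL18 (ENSG00000150782, chromosome 11, 112143251 to 112164117, minus strand), which is made in many epithelial cells without induction, went the other way. It had 28.0, 27.4 and 30.2 CPM in BARD1 siRNA libraries, against 34.0, 30.6 and 35.7 CPM in Control siRNA libraries. The groups lay close, with the highest BARD1 siRNA library just under the lowest control. It fell 1.17-fold (log2 fold change -0.23, SE 0.09, edgeR adjusted p = 0.045). This call was lost in DESeq2, at an adjusted p of 0.058, and without a filter on low counts, at 0.072. It was also lost without BARD1 siRNA replicate 1 or 2, at adjusted p of 0.107 and 0.153, and without Control siRNA replicate 1 or 3, at 0.11 and 0.162 (edgeR).

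IL33 (ENSG00000137033, chromosome 9, 6215786 to 6257983, plus strand), which encodes a nuclear alarm cytokine, had the lowest mean level of the members in BARD1 siRNA cells. Its range there overlapped that of IL1RN. Its counts were 17, 19 and 36 in BARD1 siRNA libraries, against 9, 2 and 14 in Control siRNA libraries, so that the lowest of the first group stood just above the highest of the second. The log2 fold change was 1.57 (SE 0.53, edgeR adjusted p = 0.0141). Without BARD1 siRNA replicate 3 it was 1.19 (adjusted p = 0.154) and without Control siRNA replicate 2 it was 1.12 (adjusted p = 0.114), so the call rests on these libraries.

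Both receptor chains rose. IL1R1 (ENSG00000115594, chromosome 2, 102064544 to 102179874, plus strand), the ligand-binding chain, had 68.3, 65.0 and 61.3 CPM in BARD1 siRNA libraries, against 43.4, 38.0 and 41.2 CPM in Control siRNA libraries. All 3 BARD1 siRNA libraries lay above the controls, 1.59-fold on average. Its log2 fold change was 0.66 (SE 0.08), with an edgeR adjusted p of 4.28e-10. IL1RAP (ENSG00000196083, chromosome 3, 190514051 to 190659750, plus strand), the signalling chain that the IL-1 and IL-33 receptors share, had 45.8, 48.4 and 43.5 CPM in BARD1 siRNA libraries, against 20.9, 21.8 and 20.6 CPM in Control siRNA libraries. It rose 2.17-fold, again with no overlap. On the log2 scale this was 1.12 (SE 0.09), with an edgeR adjusted p of 5.03e-15. The ratio of IL1R1 to IL1RAP per length was 2.43, 2.19 and 2.30 in BARD1 siRNA libraries, against 3.39, 2.84 and 3.27 in Control siRNA libraries. Counts per gene do not separate the membrane-bound forms of these chains from the soluble ones.

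Among the kinases, IRAK2 was the 1 that passed the test. IRAK2 (ENSG00000134070, chromosome 3, 10164865 to 10243743, plus strand), which sustains signalling after the first wave, had 117, 129 and 122 CPM in BARD1 siRNA libraries, against 12.0, 10.6 and 12.3 CPM in Control siRNA libraries. The groups were widely separated, at 123 ± 5.93 CPM with BARD1 siRNA and 11.6 ± 0.933 CPM with Control siRNA (SD, n = 3 each), and the difference was 10.5-fold (log2 fold change 3.40, SE 0.08, edgeR adjusted p = 2.92e-37).

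IRAK1 and IRAK4 did not pass the test. IRAK1 (ENSG00000184216, X chromosome, 154010500 to 154019980, minus strand), the kinase that carries the signal to TRAF6, had 491, 526 and 515 CPM in BARD1 siRNA libraries, against 455, 506 and 463 CPM in Control siRNA libraries, and the groups overlapped. Its log2 fold change was 0.10 (SE 0.05, unadjusted 95% interval 0.01 to 0.20, edgeR adjusted p = 0.0766). Without Control siRNA replicate 2 the value was 0.15, at an adjusted p of 0.00592. IRAK4 (ENSG00000198001, chromosome 12, 43758944 to 43789543, plus strand), the kinase that acts first in the complex, had 16.1, 18.2 and 13.7 CPM in BARD1 siRNA libraries, against 18.7, 19.7 and 19.3 CPM in Control siRNA libraries. All 3 BARD1 siRNA libraries lay below the controls, but the log2 fold change of -0.26 (SE 0.12, unadjusted 95% interval -0.50 to -0.03) missed the threshold (edgeR adjusted p = 0.0732). It passed without BARD1 siRNA replicate 2 (-0.37, adjusted p = 0.0286), under library size alone (-0.32, adjusted p = 0.0251) and under upper-quartile scaling (-0.33, adjusted p = 0.0229). Per length, IRAK2 made up 21.1%, 21.5% and 21.1% of the summed level of the 3 kinases in BARD1 siRNA libraries, against 2.86%, 2.28% and 2.88% in Control siRNA libraries. IRAK1 made up 76.6% to 77.4% in BARD1 siRNA libraries and 94.3% to 95.1% in Control siRNA libraries.

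**Figure D2:**
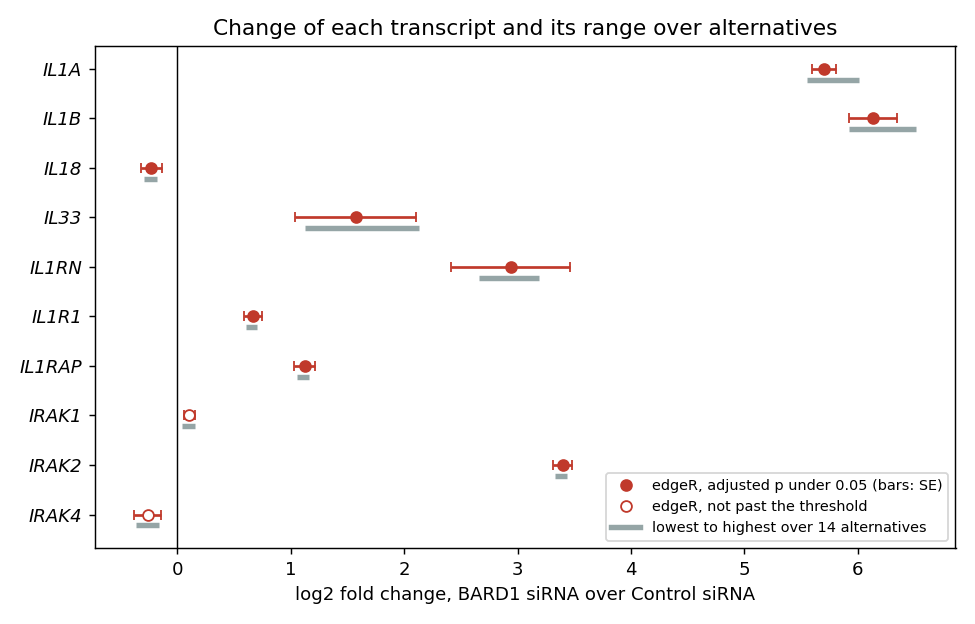
Log2 fold change of each transcript, BARD1 siRNA over Control siRNA, with its standard error (3 libraries per group), and in grey the lowest to highest value over 14 alternatives of processing or left-out libraries. Filled points passed an adjusted p of 0.05, and no grey bar crosses 0.

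The order of the members by level per length differed between the groups. In BARD1 siRNA cells the order was IRAK1 at 128 ± 4.43 RPKM, IL1A at 100 ± 3.52 and IRAK2 at 35.2 ± 1.70, then IL18 at 10.8 ± 0.558, IL1B at 9.64 ± 0.883, IL1R1 at 9.16 ± 0.499, IL1RAP at 3.97 ± 0.212, IRAK4 at 2.85 ± 0.406, IL1RN at 0.641 ± 0.235 and IL33 at 0.435 ± 0.175 (SD, n = 3). The ranges of neighbouring members overlapped for IL18 and IL1B, for IL1B and IL1R1, and for IL1RN and IL33, so these neighbours were not separated. In Control siRNA cells IRAK1 at 119 ± 6.94 RPKM was followed by IL18 at 12.7 ± 0.987 and IL1R1 at 5.77 ± 0.379, then by IRAK4 at 3.41 ± 0.0895, IRAK2 at 3.34 ± 0.268, IL1A at 1.93 ± 0.671 and IL1RAP at 1.83 ± 0.0568. IL33, IL1B and IL1RN came last, each under 0.2 RPKM on average. Here IRAK4 and IRAK2 overlapped, as did IL1A and IL1RAP, and the last 3. IL1A stood 2nd in BARD1 siRNA cells and 6th in Control siRNA cells, and IL18 stood 4th in BARD1 siRNA cells and 2nd in Control siRNA cells. Per library, the IL1A level was 9.06, 9.63 and 9.02 times that of IL18 in BARD1 siRNA libraries and 0.120, 0.233 and 0.114 times in Control siRNA libraries.

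IL1A, IL1B and IL1RN sit in a cluster of 9 protein-coding genes that spans 360.1 kb of chromosome 2 (112773915 to 113134016). Only these 3 of the cluster's genes had enough reads to test, and all 3 rose, beside 22.0% of all tested genes. IL1B and IL1RN were tested only because they were high in BARD1 siRNA libraries, so this count supports nothing about the cluster. Between them, IL36RN, which encodes the antagonist of the IL-36 receptor, had 9, 10 and 16 counts in BARD1 siRNA libraries and 0 in each Control siRNA library, at least 12.1-fold higher when the control sum is set to 3 counts, the limit that a sum of 0 allows. IL36B, an agonist of that receptor, had 6, 10 and 4 counts in BARD1 siRNA libraries and 0 in each control, at least 6.94-fold higher. Both were too low for the filter, and the test without a filter gave edgeR adjusted p of 9.66e-05 and 0.0085. IL36G had 10, 4 and 5 counts in BARD1 siRNA libraries and 0, 11 and 1 in Control siRNA libraries, with overlap. IL37, an anti-inflammatory relative, had 2, 2 and 7 counts with BARD1 siRNA and 2, 2 and 4 with Control siRNA. IL36A and IL1F10 had no count in any library. These bounds cover counting error only.

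The genes next to the cluster had smaller fold changes. CKAP2L, a spindle gene beside IL1A, was at 119 ± 4.79 CPM in BARD1 siRNA cells and 99.8 ± 3.01 CPM in Control siRNA cells (log2 fold change 0.26, edgeR adjusted p = 0.000305). PSD4, an exchange factor beside IL1RN, was at 22.7 ± 0.67 CPM in BARD1 siRNA cells and 13.2 ± 1.17 CPM in Control siRNA cells (log2 fold change 0.78, edgeR adjusted p = 1.87e-07).

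**Figure D3:**
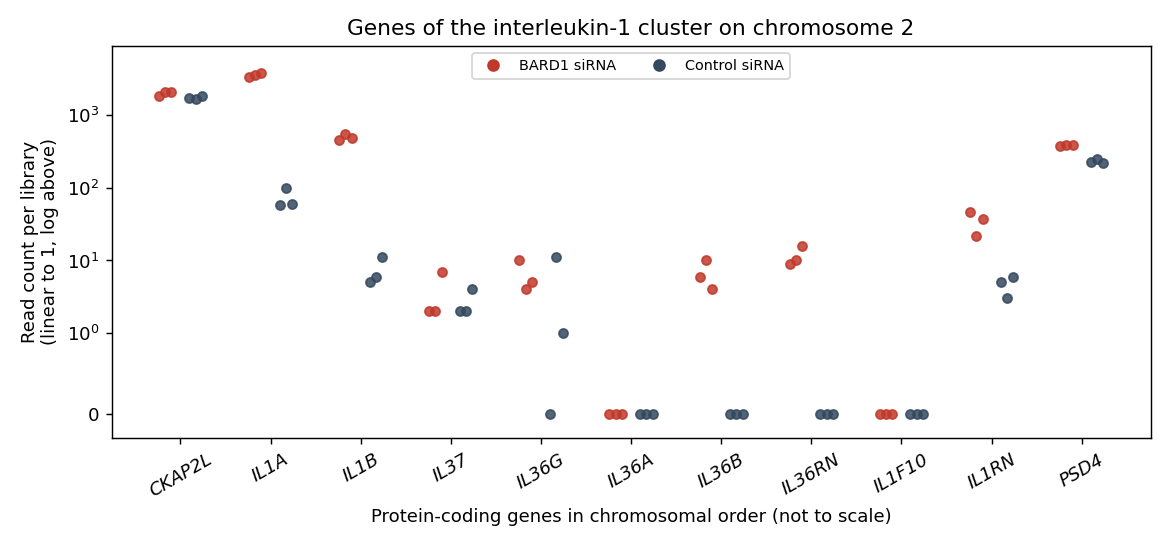
Read counts per library (linear to 1, logarithmic above) of the protein-coding genes of the interleukin-1 cluster and its neighbours CKAP2L and PSD4, in chromosomal order, with BARD1 siRNA in red to the left of Control siRNA in dark blue. IL36B and IL36RN have reads in the BARD1 siRNA libraries only, and IL36A and IL1F10 have none.

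IL1R1 lies in a second cluster, of receptor genes, on the same chromosome (101991844 to 102452565). IL1R2, the decoy receptor that binds IL-1 without signalling, had 27, 38 and 14 counts in BARD1 siRNA libraries, against 18, 20 and 6 in Control siRNA libraries. The groups overlapped and it did not pass (log2 fold change 0.90, SE 0.48, edgeR adjusted p = 0.129). IL18R1, the ligand-binding chain for IL-18, was at 5.09 ± 0.455 CPM in BARD1 siRNA cells and 2.74 ± 1.07 CPM in Control siRNA cells (log2 fold change 0.90, SE 0.26, edgeR adjusted p = 0.00337). Its partner chain IL18RAP had 0, 3 and 0 counts in BARD1 siRNA libraries and 0, 0 and 13 in Control siRNA libraries. The IL-33 receptor IL1RL1 had 3, 2 and 1 counts in BARD1 siRNA libraries and 0 in each control, and its gene overlaps IL18R1. IL1RL2, the IL-36 receptor chain, had no count in any library. The neighbours were MAP4K4, a kinase gene with a log2 fold change of 0.81 (edgeR adjusted p = 4.1e-20), and SLC9A4, an ion exchanger gene with 2, 0 and 1 counts in BARD1 siRNA libraries and 4, 3 and 4 in Control siRNA libraries. Outside the cluster, the soluble IL-18 inhibitor IL18BP (log2 fold change -0.03, edgeR adjusted p = 0.919) and the inhibitory receptor SIGIRR (-0.06, adjusted p = 0.756) did not pass, and neither did the synaptic relative IL1RAPL2 at 0.06. IL1RAPL1, another synaptic relative, reached the filter in all 3 Control siRNA libraries and in 0 BARD1 siRNA libraries, so it could be tested only if it was lower in BARD1 siRNA cells. It was at 0.297 ± 0.102 CPM in BARD1 siRNA cells and 0.834 ± 0.120 CPM in Control siRNA cells (log2 fold change -1.47, edgeR adjusted p = 0.0479). Over the 15 other family genes 6 could be tested, of which 1 was higher and 1 lower. These are 33.3% called, beside 42.3% of all tested genes, with a median log2 fold change of 0.01. IL1R2 reached the filter's CPM value in 3 BARD1 siRNA and 2 Control siRNA libraries. The call of IL1RAPL1 was lost in DESeq2, without a filter (adjusted p = 0.145), with a replicate block and on leaving out any 1 library (edgeR adjusted p of 0.0588 to 0.151).

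Counted in either direction, adaptors and kinases downstream of the receptor were called about as often as genes at large. Of 22 genes of the MYD88, TRAF6 and TAK1 branch 21 were tested, and 47.6% were called beside 42.3% of all tested genes (median 0.10 against -0.01). The called genes were mostly higher, 8 against 2 lower, whereas all tested genes split into 22.0% higher and 20.3% lower. MYD88, the adaptor that the whole family shares, had 173, 185 and 177 counts in BARD1 siRNA libraries and 172, 181 and 177 in Control siRNA libraries, and the groups overlapped (log2 fold change 0.07, SE 0.15, edgeR adjusted p = 0.738). IRAK3, the inhibitory family member of monocytes, was near 0, with 1, 1 and 5 counts in BARD1 siRNA libraries and 0, 3 and 7 in Control siRNA libraries. Among the called genes that rose were UBE2V1 (log2 fold change 0.92, edgeR adjusted p = 0.00318), a cofactor of the ubiquitin chains that TRAF6 builds, whose gene overlaps the readthrough TMEM189-UBE2V1, and the kinase MAP3K8 (0.65, adjusted p = 1.51e-05). IKBKB, a catalytic subunit of the IκB kinase, rose by 0.56 on the log2 scale (edgeR adjusted p = 7.88e-08). IRAK1BP1 fell by 0.67 (edgeR adjusted p = 0.0058), and its gene overlaps PHIP, which had 9753 reads in all against its 632. The call of UBE2V1 was lost without BARD1 siRNA replicate 1 (0.70, edgeR adjusted p = 0.0565), and that of IRAK1BP1 without Control siRNA replicate 3 (-0.46, adjusted p = 0.0964).

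Genes that process or release these cytokines gave a mixed picture. Of 20 listed genes 16 were tested, 8 of them higher and 3 lower, 68.8% called beside 42.3% of all tested genes, with a median log2 fold change of 0.33. NLRP3, MEFV and CASP1 reached the filter in no Control siRNA library, so they could be tested only if they were higher in BARD1 siRNA cells, and the count includes these 3. NLRP3, the sensor that activates caspase-1 in myeloid cells, was at 3.35 ± 0.517 CPM in BARD1 siRNA cells and 0.418 ± 0.0234 CPM in Control siRNA cells (log2 fold change 2.98, SE 0.41, edgeR adjusted p = 1.92e-08). MEFV, which encodes the inflammasome protein pyrin, had 94, 63 and 86 counts in BARD1 siRNA libraries and 1, 7 and 0 in Control siRNA libraries (log2 fold change 4.92, SE 0.49, edgeR adjusted p = 1.1e-11). PYCARD, the adaptor of both sensors, had 0 counts in each BARD1 siRNA library and 0, 0 and 5 in Control siRNA libraries. CASP1, the protease that cleaves pro-IL-1β and pro-IL-18, was low, at 21, 14 and 13 counts in BARD1 siRNA libraries and 9, 2 and 6 in Control siRNA libraries (log2 fold change 1.54, edgeR adjusted p = 0.0336). Its call was lost without BARD1 siRNA replicate 1 (1.27, adjusted p = 0.169) or 2 (1.64, 0.0593), and without Control siRNA replicate 2 (1.16, 0.173) or 3 (1.56, 0.0807). CASP4, which senses bacterial lipid inside cells, was more abundant, at 20.2 ± 0.405 CPM in BARD1 siRNA cells and 9.16 ± 0.298 CPM in Control siRNA cells (log2 fold change 1.14, edgeR adjusted p = 1.14e-10). Of the 3 genes for subunits of calpains, proteases that cleave pro-IL-1α, CAPN2 was at 0.61 and CAPNS1 at -0.26 on the log2 scale (edgeR adjusted p = 2.76e-16 and 1.18e-05), while CAPN1 did not pass (0.11, adjusted p = 0.148).

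Transcripts known to be induced by IL-1 were nearly all higher. Of 25 listed genes 23 were tested, 22 rose and none was lower. This is 95.7% called, beside 42.3% of all tested genes, of which 22.0% were higher, and the median was 2.77 on the log2 scale against -0.01 over all tested genes. Of the 23, CSF2, CSF3, CCL2 and ICAM1 reached the filter's CPM value in no Control siRNA library. The BARD1 siRNA libraries alone let these genes be tested, and the count includes them. This list, like the others, was chosen with results of these data known. The share and median therefore describe the list and test nothing about it. CCL20 reached that value in 3 BARD1 siRNA and 2 Control siRNA libraries. The tested gene that missed the threshold was the prostaglandin synthase PTGS2, at 7, 11 and 15 counts in BARD1 siRNA libraries and 15, 3 and 1 in Control siRNA libraries (log2 fold change 0.84, edgeR adjusted p = 0.336). The chemokine genes CXCL5 and CXCL6 were too low to test and had no count in any BARD1 siRNA library. In Control siRNA libraries CXCL5 had 0, 5 and 0 counts and CXCL6 had 0, 0 and 2. The largest changes were 7.14 for CSF2 and 5.30 for CXCL8 and CCL20, as log2 fold changes. CSF2 and CCL20 had 7 and 33 reads in all over the Control siRNA libraries, so their folds rest on few control reads. CSF3, next in size, had 28, 30 and 37 counts in BARD1 siRNA libraries and 0, 3 and 0 in Control siRNA libraries (edgeR adjusted p = 1.33e-07). The same genes answer other NF-κB signals, and a part of secreted IL-1 in these values was not tested. Toll-like receptors, which use the same adaptor and kinases, were scarce. Their list of 11 genes also held the co-receptor genes CD14 and LY96. Of the 11, 5 had no count, LY96 among them, and 3 were tested. Of those tested TLR6 was higher, with 26, 42 and 33 counts in BARD1 siRNA libraries and 16, 16 and 12 in Control siRNA libraries (log2 fold change 1.25, edgeR adjusted p = 0.0147). That is 33.3% called, beside 42.3% of all tested genes. The call of TLR6 was lost without BARD1 siRNA replicate 2 (1.06, adjusted p = 0.0937) and without Control siRNA replicate 3 (1.10, adjusted p = 0.0544).

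**Figure D4:**
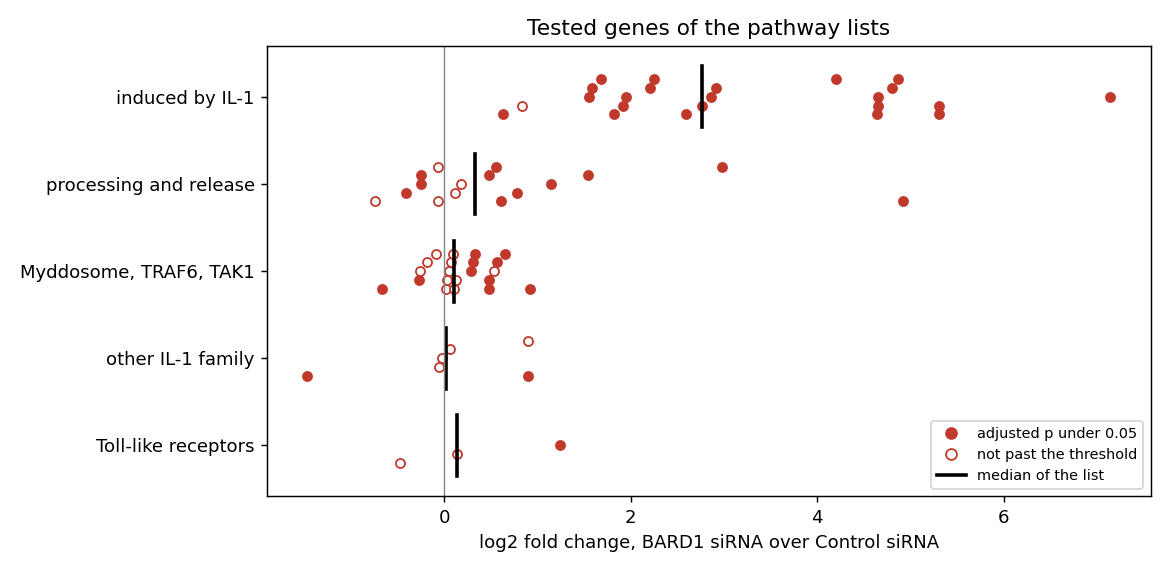
Log2 fold change, BARD1 siRNA over Control siRNA, of each tested gene in the 5 pathway lists, with filled points past an adjusted p of 0.05 and a black bar at the list's median. The list of genes induced by IL-1 lies wholly above 0 with a median of 2.77, while the medians of the other 4 lie between 0.01 and 0.33.

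The genes whose pattern over the 6 libraries was nearest to that of IL1A were CXCL8, CXCL2 and ATF3, by root mean square distances of 0.26, 0.44 and 0.46 between gene-centred log2(CPM + 1) values. Those nearest to IL1B were HMOX1, GDF15 and CXCL3, at 0.10, 0.10 and 0.14. With 2 groups this distance follows mainly the size of the difference between them in log2(CPM + 1), which is not the log2 fold change. The 1 CPM added to each value shrinks the difference of a gene with a low control level, such as IL1B. HMOX1, GDF15 and CXCL3 each had a smaller log2 fold change than the 6.13 of IL1B. Their nearness therefore does not mean that they rose by the same factor. CXCL2 and CXCL3 are close paralogs whose reads may be divided between them.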

How the data were processed

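Poly(A)-captured RNA of 6 SKOV3ip1 cultures was sequenced. The deposited table holds whole-number read counts for each gene, not normalized by the authors. The deposited gene length column, another kind of value, served only for levels per length. The tools CASAVA and HISAT2 and the build GRCh38 (hg38) are listed in the submitters' processing notes. The counter, its strand setting and all versions are not given in these sources, so overlapping genes may share reads. All 58735 identifiers occur in GENCODE release 29, 58708 with the same name.

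Groups and columns were matched through the sample labels. BARD1 siRNA was compared with Control siRNA by edgeR 4.0.16 (R 4.3.3) with the robust quasi-likelihood test, TMM factors and group alone as the design. The filterByExpr function used a minimum count of 10 and minimum total of 15, which left 15271 of 29419 genes with any count. Positive fold changes mean higher in BARD1 siRNA cells, and the SE is the absolute log2 fold change over the root of F. The 95% intervals take a normal error. Totals of 16621108 to 17743404 reads set the precision of low genes. Replicates differed by more than sampling noise (chi-square over its degrees of freedom 3.29 to 7.71). The test was also run on simulated data with far fewer changed genes than were called here, and no result above rests on that run.

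The members and lists were chosen with earlier results of these data known. Named were all members, BARD1, the other family genes, up to 4 called genes with the largest change per list, cluster neighbours and the 3 genes nearest to IL1A and IL1B. Further names (MYD88, IRAK3, PYCARD, CCL2, ICAM1, CXCL5, CXCL6, the calpain genes and PTGS2) and the ATTTA counts were chosen after values were seen. The markers KRT7 and PAX8 were also named after values were seen. Lists were described by counts alone. Alternatives were other scaling factors, DESeq2 1.42.0, limma-voom (limma 3.58.1), no filter, protein-coding genes only, a replicate block and leaving out each library.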

Additional observations from a re-analysis of the deposited data

How the results depend on the processing

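IL1A, IL1B, IL1RN, IL1R1, IL1RAP and IRAK2 stayed past the threshold in the same direction under all 14 alternatives, with log2 fold changes of 5.55 to 6.01, 5.92 to 6.52, 2.66 to 3.19, 0.60 to 0.71, 1.06 to 1.16 and 3.33 to 3.44. No member changed sign. In place of 1 lower member there were 2 under library size alone and under upper-quartile scaling, through IRAK4 at -0.32 and -0.33. There were 0 with DESeq2 and with no filter on low counts, through IL18 at -0.23 in each. Leaving out 1 library gave 0 to 1 lower members, with IL18 at -0.29 to -0.18, IL33 at 1.12 to 2.13, IRAK1 at 0.071 to 0.15 and IRAK4 at -0.37 to -0.16. The cause was not tested.

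Among the other family genes the count of lower genes was 0 with DESeq2, with no filter, with the replicate block and without any 1 library (0 to 0). The higher count was 3 with no filter, by adding IL36B and IL36RN, and 1 to 2 without 1 library. Leaving out 1 library gave 1 to 2 lower genes of the MYD88 branch, 1 to 3 lower processing genes and 0 to 1 higher Toll-like receptor genes, with TLR6 lost without BARD1 siRNA replicate 2 or Control siRNA replicate 3. Deviations of same-numbered libraries from their group means had correlations of -0.0091, -0.015 and -0.022 over the tested genes. Such values cannot show whether these libraries were prepared together, since a shared effect on few genes would not appear in them. The replicate block gave 3390 higher and 3122 lower genes, against 3355 and 3107 without it. Upper-quartile factors gave 2815 and 3975, and library size alone gave 2852 and 3906, a median shift of -0.07 and -0.06 on the log2 scale. With CPM in place of levels per length the rank of 4 members in BARD1 siRNA and 6 in Control siRNA cells changed. IL1B, IL1RN and IL33 rest on 22, 14 and 25 reads in Control siRNA cells, which limits their fold changes.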
